A study of Danio rerio with 8 samples.

Results

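The genes described here are known by the name of a DNA clone rather than by a gene name, and their RNA was at least 4 times lower in iqgap1-/- zebrafish embryos with hemorrhage than in wild-type embryos. A row of the deposited table was taken when its symbol held a colon, or 2 capital letters followed by 6 digits, and when the mean of the 4 wild-type columns was at least 10 and at least 4 times the mean of the 4 mutant columns, both as deposited. These conditions gave 82 of the 1293 listed genes. The table holds 552 clone-named genes and 741 genes with other names, and 53 genes with other names meet the same conditions on level and ratio. Names of 4 capital letters followed by 8 digits, which are also sequence names, were counted among the other names. Taking them in as clone names gave 91 genes, the 82 among them, so some of the 53 carry sequence names too. Of the 82 symbols, 44 begin with si:, 8 begin with zgc:, and 30 are built on a sequence accession.

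The mutant group was 4 pools of iqgap1-/- embryos that showed hemorrhage, and the wild-type group was 4 pools of wild-type embryos. All were collected whole at 53 hours post fertilisation (hpf), and total RNA was depleted of ribosomal RNA and sequenced after random priming on an Illumina NextSeq. Per the labels, embryos came from single as well as group crosses. The series' design text puts 20 embryos in each pool, whereas the extraction protocol in the labels describes individual larvae, and the files do not settle which applies. The sources used here give neither the iqgap1 allele nor the parents or strain of either group, and do not state that the pools of a group came from separate clutches, so the spread between pools may in part be technical. Every mutant pool was of embryos with hemorrhage, so genotype, hemorrhage and parents or strain cannot be told apart in this comparison.

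IQGAP1 is a scaffold protein that links the actin cytoskeleton, cell junctions and signalling proteins. Names beginning with si: were given during the sequencing of the zebrafish genome and carry the name of the genomic clone in which the gene was found, followed by a number within that clone. Names beginning with zgc: come from cDNA clones of the Zebrafish Gene Collection, and names such as BX511034.5 join the sequence accession of a genomic clone to a number. Genes keep such names while little is known of their function, and many belong to families with near-identical copies. For most of the 82 genes no role is stated below because none of the sources used here gives one.

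The mutated gene was examined first. On the scale of normalized counts, which are the recovered expected counts divided by the size factor of each library, iqgap1 (ENSDARG00000078888) had 1111, 970, 902 and 1245 in the mutant pools, against 2185, 2118, 2212 and 2115 in the wild-type pools. All 4 mutant pools lay below all wild-type pools, with a log2 fold change, mutant over wild type, of -1.03 ± 0.12 (SE, edgeR). Expected counts summed to between 354272 and 552331 per library over the listed genes; this is a part of each library and not its depth. Mutant pool 1 stood apart over the listed genes: its chi-square per degree of freedom against the other mutant pools was 17.9 to 20.3, beside 2.52 to 3.98 among those pools and 4.80 to 12.8 among the wild-type pools. Without it the same conditions gave 82 genes, 76 of them shared with the set described here. A search with marker lists found 11 of 11 erythrocyte markers listed, all higher in the mutants, with summed normalized counts of 136137 to 180487 in the mutant pools and 41257 to 69039 in the wild-type pools. Of 7 neutrophil markers 6 were listed, all higher (4340 to 5483 in the mutant pools against 2230 to 2681 in the wild-type pools), and of 8 macrophage and microglia markers 5 were listed, all lower (13118 to 18661 in the mutant pools against 20610 to 27355 in the wild-type pools). No listed marker of these 3 cell types was at 0 in any pool. The liver marker fabp10a (1 of 4 listed) was higher (15.9 to 26.9 in the mutant pools against 3.69 to 14.0 in the wild-type pools) and the pigment cell marker oca2 (1 of 4 listed) was lower (153 to 203 in the mutant pools against 237 to 279 in the wild-type pools). Of 6 lens and photoreceptor markers rho and cryaa were listed, 1 in each direction. None of the 7 skeletal muscle, 6 neuron and glia, 4 epidermis or 4 endothelium markers was listed, and since the table holds only genes selected by the authors as changed, the whole-embryo label could not be checked on them. The part of these cell types in the levels of the 82 genes was not tested. In RNA from whole embryos, fewer cells of a type and less RNA per cell cannot be told apart.

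As a group the 82 genes were far lower in the mutants but few were abundant in either group. The ratio of the deposited means, wild type over mutant, ran between 4.02 and 73.8 with a median of 7.20. It lay between 4 and 8 for 51 genes, between 8 and 16 for 16 genes and at 16 or more for 15 genes. The deposited wild-type mean had a median of 39.0 expected counts and a range of 10.5 to 1202, with 20 genes under 20, 55 genes between 20 and 100, and 7 genes at 100 or more. On the scale of log2 fold changes, the authors' deposited table gave these genes a median of -2.56 and a range of -5.77 to -1.71, beside a median of 0.72 over all 1293 listed genes and of -1.27 over the 532 listed genes that were lower in the mutants. These differences chose the genes, so they are a description and carry no test.

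The share of genes that met the level and ratio conditions was 10.4% over all listed genes, 14.9% over the clone-named genes and 7.15% over the genes with other names. In the opposite direction, 54 of the 552 clone-named genes and 26 of the 741 genes with other names were at least 4 times higher in the mutants. The larger share of clone-named genes was thus not particular to the lower direction. These are shares of genes already selected by the authors, and clone-named genes had lower counts. At a wild-type mean of at least 10, the median was 44.5 for clone-named genes outside the 82 and 74.2 for all other listed genes. The part of count level in these shares was not tested. The edgeR quasi-likelihood test called 29.3% of the 1126 listed genes that passed the count filter lower in the mutants at an adjusted p under 0.05. Of the 82 genes, 67 passed the filter and 59 of these were called, which says nothing further because the same contrast chose them. The other 15 genes did not pass the filter and were not fitted. In normalized counts, all 4 mutant pools lay below all 4 wild-type pools for 78 of the 82 genes, against 38.1% of all listed genes and 92.7% of the listed genes that were lower in the mutants. Without mutant pool 1 it was 78 genes again, against 38.7% of all listed genes. Pools that do not overlap are thus common among the listed genes that were lower in the mutants, and mark out no gene named below. The 4 genes with overlapping pools were si:dkey-106c17.2, CR925761.1, BX248082.1 and si:rp71-36a1.3. After scaling, 12 of the 82 genes were above 25% of the wild-type mean in the mutants, up to 30.7%, the ratio that chose the genes having been taken on unscaled values.

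**Figure D1:**
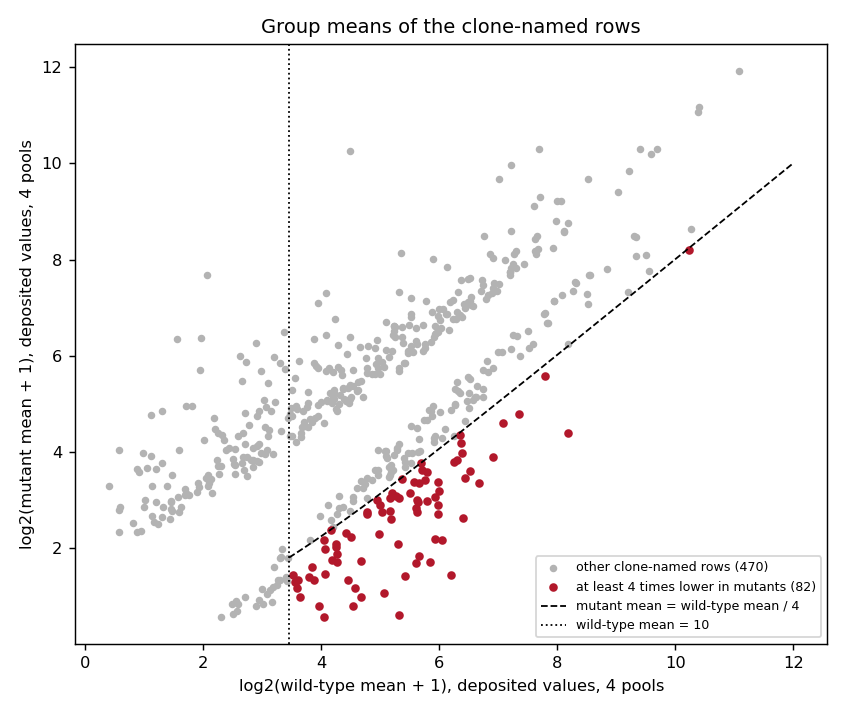
Mean deposited value over the 4 mutant pools (vertical) against the mean over the 4 wild-type pools (horizontal), both as log2(mean + 1), for the 552 clone-named genes. The 82 genes (red) lie under the dashed line where the mutant mean is the wild-type mean divided by 4, and right of the dotted line at a wild-type mean of 10; the 470 others are grey.

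Summed over the 82 genes, normalized counts came to 601, 1108, 949 and 997 in the mutant pools, against 4905, 5259, 4454 and 4558 in the wild-type pools. The gene si:dkey-262j3.7 alone made up a large part of each sum. Without it the other 81 genes summed to 473, 657, 620 and 633 in the mutant pools (596 ± 83.1, SD, n = 4) and to 3727, 3930, 3543 and 3466 in the wild-type pools (3667 ± 207, SD, n = 4). Mutant pool 1 had the lowest sum of the mutant pools with and without that gene. The mean mutant sum over all 82 genes was 19.1% of the wild-type one, and 21.2% without mutant pool 1. Pool by pool, mutant pool 1 was the lowest of the mutant pools for 28 of the 82 genes (34.1%), beside 34.7% of the 975 other listed genes with a wild-type mean of at least 10. It was the highest of the mutant pools for 9 of the 82 genes (11%), beside 32.2% of those other genes. Among the 53 genes with other names that met the same conditions, it was the lowest for 30.2% and the highest for 18.9%. Mutant pool 2 was the highest of the mutant pools for 29 genes (35.4%), beside 19.3% of those other genes and 17.0% of the 53.

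**Figure D2:**
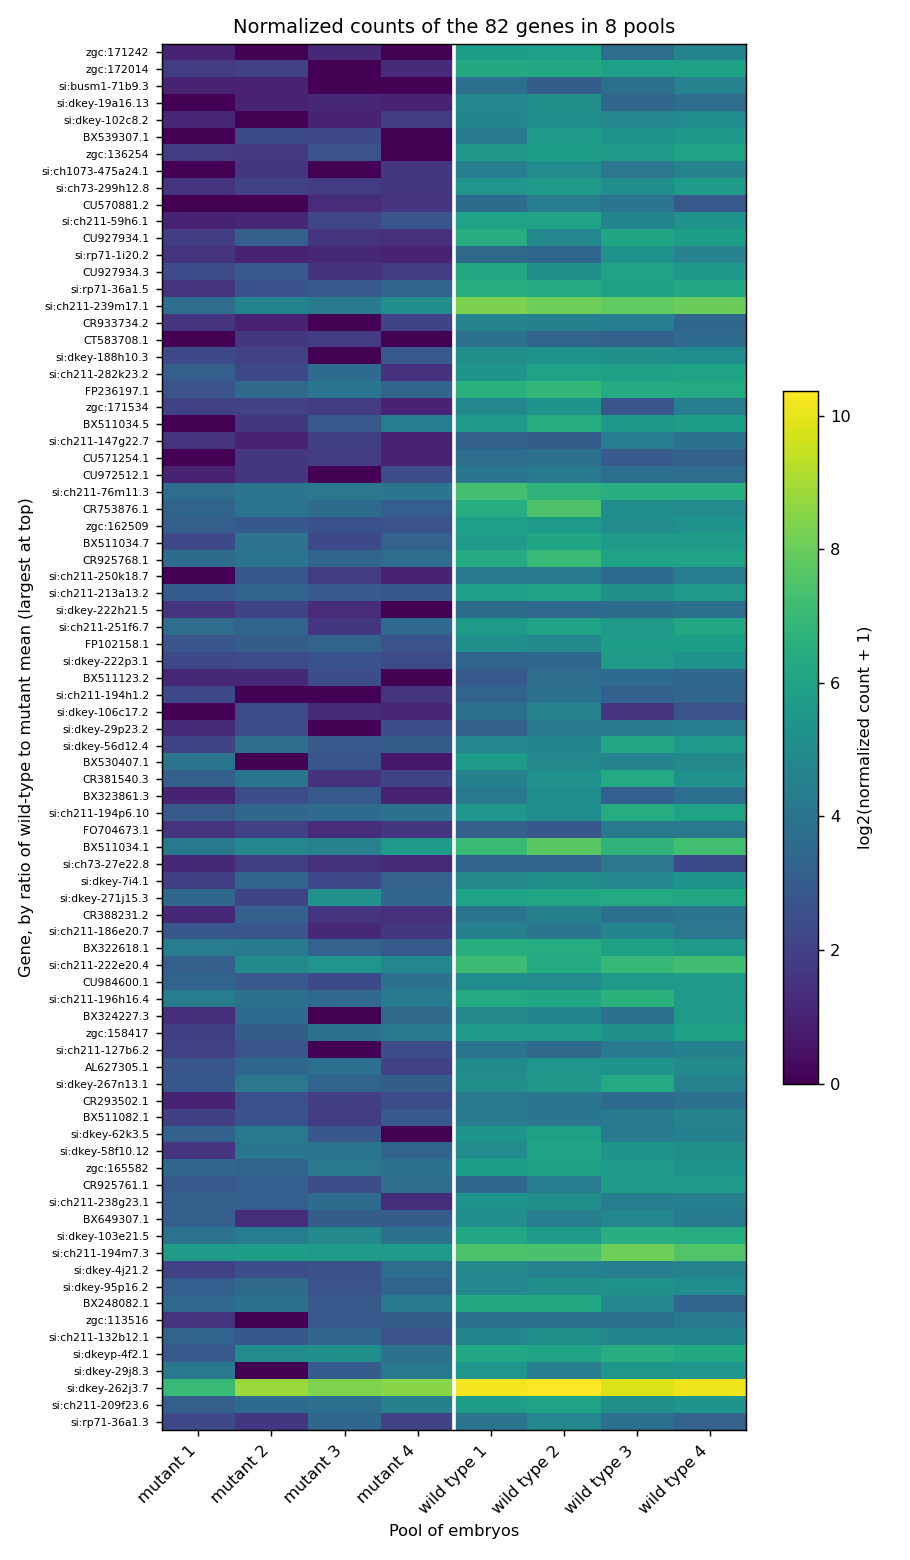
Normalized counts of the 82 genes (vertical, largest ratio of wild-type to mutant mean at the top) in the 4 mutant pools (left of the white line) and the 4 wild-type pools (right), coloured as log2(normalized count + 1). The darkest cells, counts of 0, fall in 27 genes of the mutant pools and in no wild-type pool.

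The genes with the largest ratios were close to absent from the mutant pools. The largest was zgc:171242 (ENSDARG00000078551, protein-coding), with 1.05, 0, 1.27 and 0 normalized counts in the mutant pools, against 56.0, 56.9, 12.2 and 24.4 in the wild-type pools. Its 4 mutant pools held 2 counts in all and its wild-type pools 158. The mutant level was thus 1.48% of wild type, with an exact 95% counting interval of 0.178% to 5.44%. Such intervals cover counting error only, and make no allowance for the choice of genes by these same counts. The gene zgc:172014 (ENSDARG00000101775, protein-coding) had 2.59, 3.12, 0 and 1.34 in the mutant pools, against 77.1, 76.7, 56.4 and 60 in the wild-type pools. It was among the genes whose wild-type pools stood close together, at 67.6 ± 10.9 beside 1.76 ± 1.39 in the mutants (SD, n = 4 each), and its log2 fold change was -5.08 ± 0.40 (SE).

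A further 3 of the 10 genes with the largest ratios had at most 3 mutant counts in all, and their ratios are given with counting intervals. For si:busm1-71b9.3 the pools held 0.976, 1.04, 0 and 0 normalized counts in mutants, against 13.0, 7.26, 13.1 and 23.0 in wild type, or 3.77% of wild type (0.447% to 14.2%). For si:dkey-19a16.13 they held 0, 1.04, 1.28 and 1.06 in mutants, against 27.9, 34, 9.68 and 12.2 in wild type, or 3.94% (0.798% to 11.9%). For CU570881.2 they held 0, 0, 1.47 and 1.95 in mutants, against 11.7, 19.5, 16 and 6.48 in wild type, or 6.05% (1.21% to 18.6%). In none of these 3 genes did a mutant pool reach the lowest wild-type pool, and the upper bounds leave room for a mutant level of more than 10% of wild type.

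The remaining 5 of the 10 were low in every mutant pool. The gene si:dkey-102c8.2 had 1.19, 0, 1.04 and 2.54 in mutants, against 26.4, 33.4, 27.1 and 32.3 in wild type, a log2 fold change of -4.62 ± 0.41 (SE); from here on a value in brackets after the counts of a gene is its log2 fold change ± SE. The gene zgc:136254 had 2.59, 2.41, 5.36 and 0 in mutants, against 44.5, 53.0, 50.4 and 62.1 in wild type (-4.36 ± 0.42). The gene si:ch73-299h12.8 had 1.95, 3.12, 2.56 and 2.12 in mutants, against 41.9, 47.8, 33.1 and 51.6 in wild type (-4.10 ± 0.30). Of these, si:ch73-299h12.8 was above 0 in every mutant pool and had the smallest standard error. BX539307.1 was at 0 in mutant pools 1 and 4 and at 3.99 and 3.85 in mutant pools 2 and 3, against 19.2, 51.2, 38.0 and 45.2 in wild type (-4.25 ± 0.61). With 1 pool left out, its log2 fold change ran from -4.97 (mutant pool 2) to -3.81 (mutant pool 1). The fifth, si:ch1073-475a24.1, is described with the annotated genes.

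Counts of 0 recurred among the 82 genes in mutant pools only. At least 1 mutant pool was at 0 for 27 of the 82 genes (32.9%), 1 pool for 20 genes and 2 pools for 7 genes, and no gene was at 0 in 3 or 4 mutant pools. No wild-type pool was at 0 for any of the 82. The conditions do not require this of each pool, but a wild-type mean of at least 10 makes a 0 there unlikely. The genes with 2 mutant pools at 0 were zgc:171242, si:busm1-71b9.3, BX539307.1, si:ch1073-475a24.1, CU570881.2, CT583708.1 and si:ch211-194h1.2. Among the 53 genes with other names that met the same conditions, 10 (18.9%) had a mutant pool at 0, and among 404 other listed genes that were lower in the mutants with a wild-type mean of at least 10 there were 12 (2.97%). The 404 genes were not held to the ratio of 4, and the mutant values compared are those that chose the 82 genes, so nothing is read from the difference. A 0 here means that no read was assigned, and the depth of the libraries does not show whether the transcript was absent.

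At the other end by count stood 10 genes with the highest wild-type means. Counts also grow with transcript length, so this order says nothing of molecules per embryo. The highest was si:dkey-262j3.7 (ENSDARG00000104141), with 128, 450, 329 and 364 normalized counts in the mutant pools, against 1177, 1329, 911 and 1092 in the wild-type pools. Mutant pool 1 stood well under the other mutant pools, and the log2 fold change was -1.83 ± 0.30 (SE), or -1.56 without that pool. The next, si:ch211-239m17.1 (protein-coding in RefSeq), had 12.2, 24.5, 18.0 and 32.9 in mutants, against 317, 269, 226 and 260 in wild type. With 21.9 ± 8.87 in mutants and 268 ± 37.7 in wild type (SD, n = 4 each), it combined a high count with a log2 fold change of -3.59 ± 0.24 (SE), the largest drop of these 10 genes but for si:rp71-36a1.5.

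Other genes of this set differed in how far their wild-type pools spread. FP236197.1 had 5.36, 10.9, 15.7 and 9.49 in mutants, against 94.2, 116, 82.3 and 80.6 in wild type (-3.23 ± 0.28). The gene si:ch211-76m11.3 had 12.2, 16, 16.5 and 15.6 in mutants, against 159, 107, 93.6 and 86.7 in wild type (-2.89 ± 0.25). The gene si:ch211-222e20.4 had 7.83, 29.7, 41.9 and 27.3 in mutants, against 137, 82.6, 120 and 146 in wild type (-2.21 ± 0.36). In all 3 the groups stayed apart, and the mutant pools of si:ch211-76m11.3 lay within 5 counts of each other whereas those of si:ch211-222e20.4 spread over more than 30. CR753876.1 had 9.14, 15.1, 11.8 and 7.49 in mutants, against 85.4, 178, 32.1 and 30.7 in wild type. Its log2 fold change of -2.90 ± 0.61 leaned on wild-type pool 2 and was -2.18 without it.

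Only a few of the 82 genes carry a gene name in the reference tables. Ensembl gives 6 of them a symbol that is not a clone name, and these are ordered here from enzymes to surface proteins and RNAs. The gene si:dkey-103e21.5 (ENSDARG00000091926) is casp22, a member of the caspases, the cysteine proteases of cell death and inflammation. It had 14.6, 19.8, 28.1 and 13.8 normalized counts in mutants, against 70.8, 49.9, 90.8 and 84.8 in wild type, a log2 fold change of -1.97 ± 0.28 (SE). The gene zgc:165582 (ENSDARG00000074362) is listed by Ensembl as FUT9, which in human encodes a fucosyltransferase that adds fucose to surface glycans. It had 9.76, 8.83, 16.6 and 13.8 in mutants, against 54.6, 58.8, 47.5 and 38.6 in wild type (-2.05 ± 0.26). The gene si:ch1073-475a24.1 (ENSDARG00000101556) is fam111.2, of a family whose human members are trypsin-like proteases. It was at 0, 2.08, 0 and 2.12 in mutants, against 20.5, 30.9, 16.1 and 24.0 in wild type (-4.25 ± 0.54). None of these 3 genes had a mutant pool that reached a wild-type pool.

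CU984600.1 (ENSDARG00000078172) is ptgfrna, related to human PTGFRN, a membrane protein known as the prostaglandin F2 receptor inhibitor. It had 9.18, 6.54, 3.98 and 13.5 in mutants, against 31.9, 30.9, 48.7 and 51.6 in wild type (-2.28 ± 0.35). The gene si:ch211-194m7.3 (ENSDARG00000074322) appears in Ensembl and RefSeq as olmf4l1. It had 51.7, 55.9, 49.8 and 46.3 in mutants, against 171, 170, 268 and 187 in wild type, and its log2 fold change of -1.96 ± 0.18 had the smallest standard error among the 67 genes fitted. CR925768.1 (ENSDARG00000105282) is labelled U1, the small nuclear RNA that recognises the 5′ splice site. It had 11.6, 15.1, 9.54 and 12 in mutants, against 82.3, 127, 63.3 and 64.6 in wild type (-2.79 ± 0.30). Since U1 genes exist in near-identical copies, reads assigned to this locus may stem from others, and this value is uncertain for the locus.

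By symbol or synonym, 36 of the 82 genes (43.9%) could be matched to RefSeq's GRCz12tu annotation. Of these, 32 are protein-coding, 3 are long noncoding RNAs and 1 is a pseudogene. Of the 1211 other listed genes 845 (69.8%) were matched, with 826 protein-coding, 16 long noncoding RNAs and 3 of other RNA kinds. The clone-named genes outside the 82 were matched about as rarely (45.7% of 470). A gene held there under another name was not matched, so these shares describe names and not presence in the annotation. The long noncoding RNA si:dkey-188h10.3 (ENSDARG00000097737) had 3.91, 3.12, 0 and 6.36 in mutants, against 35.4, 38.9, 36.5 and 32.3 in wild type (-3.31 ± 0.41). The long noncoding RNA si:dkey-271j15.3 (ENSDARG00000091627) had 10.5, 3.37, 37.3 and 9.73 in mutants, against 64.4, 71.5, 81.0 and 72.2 in wild type. Mutant pool 3 was the highest mutant pool in this gene, whose log2 fold change was -2.31 ± 0.47, -3.19 without that pool and -1.96 without mutant pool 2. The third, si:dkey-62k3.5, had 8.34, 18.0, 5.96 and 0 in mutants, against 40.3, 58.5, 18.8 and 22.8 in wild type (-2.05 ± 0.61). The pseudogene si:ch211-194p6.10 had 6.39, 10.0, 11.4 and 13.8 in mutants, against 43.4, 32.3, 84.2 and 62.6 in wild type (-2.39 ± 0.35). In each of these 4 genes the lowest wild-type pool exceeded the highest mutant pool, in si:dkey-62k3.5 by only 18.8 against 18.0.

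The threshold of 4 divided genes that hardly differed. Just inside it were si:rp71-36a1.3, si:ch211-209f23.6 and si:dkey-262j3.7, with ratios of deposited means of 4.02, 4.03 and 4.09. Just outside were BX640512.3, zgc:173443 and si:ch211-108c17.2, with 3.93, 3.93 and 3.87. In normalized counts si:ch211-209f23.6 had 7.81, 11.4, 12.8 and 22.3 in mutants, against 53.1, 61.8, 34.8 and 40.6 in wild type. Outside the threshold, si:ch211-108c17.2 had 98.1, 95.3, 77.0 and 47.5 in mutants, against 294, 225, 299 and 263 in wild type. BX640512.3 had 2.93, 6.24, 3.41 and 6.36 in mutants, against 15.8, 15, 14.4 and 19.4 in wild type, and zgc:173443 had 25.5, 15.3, 17.7 and 23.3 in mutants, against 46.3, 61.9, 59.6 and 106 in wild type. The groups did not overlap in any of the 3 genes just outside, whereas they did in si:rp71-36a1.3 just inside.

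The wild-type pools differed among themselves more in the 82 genes than in most listed genes. The coefficient of variation over the 4 wild-type pools had a median of 27.7% and a range of 7.70% to 86.5%, beside a median of 16.7% over the 975 other listed genes with a wild-type mean of at least 10. It was 21.5% over 328 other clone-named genes and 20.7% over the 53 genes with other names that met the same conditions. Low counts vary more, so the part expected from counting was removed, which left medians of 21.6% for the 82 genes, 10.4% for the other listed genes, 13.7% for the other clone-named genes and 15.4% for the 53 genes. At a wild-type mean of at least 30, the medians before that step were 26.7% for 53 of the 82 genes, 14.8% for 758 other listed genes, 18.0% for 221 other clone-named genes and 19.6% for 35 of the 53 genes with other names. The highest wild-type pool was at least 3 times the lowest for 19 of the 82 genes (23.2%), for 48 other listed genes (4.92%) and for 9 of the 53 genes (17.0%). At a wild-type mean of at least 30 the set with other names was above the clone-named one, with 18.9% of the clone-named genes, 3.03% of the other listed genes and 22.9% of the genes with other names (8 of 35). These values describe the wild-type pools that also entered the choice of genes, and no test was made of them. Every listed gene had been selected by the authors as changed, and a small change is selected more readily where the pools agree. The comparison with the other listed genes is therefore not like for like, whereas the 53 genes met the same ratio.

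**Figure D3:**
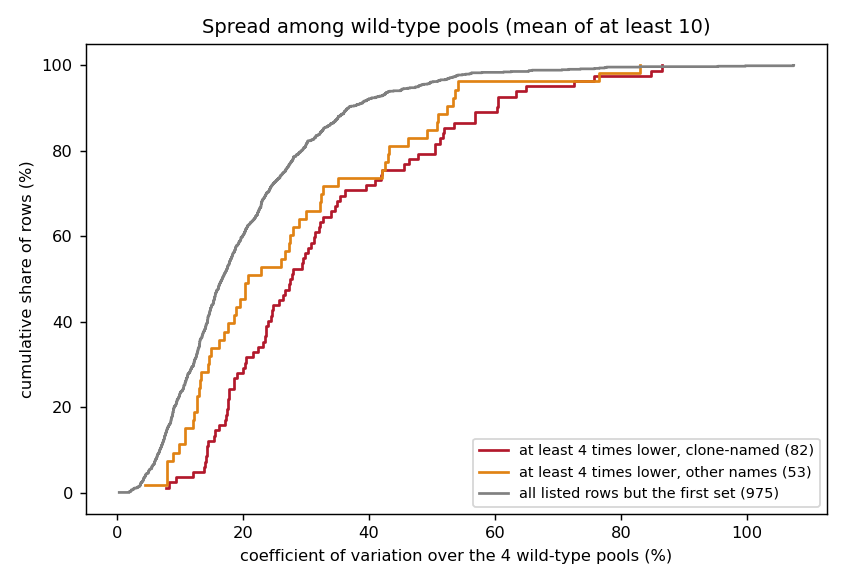
Cumulative share of genes (vertical, percent) by the coefficient of variation over the 4 wild-type pools (horizontal, percent) for the 82 genes (red), the 53 genes with other names that met the same conditions (orange) and the 975 other listed genes with a wild-type mean of at least 10 (grey). The red curve lies right of the grey one, with medians of 27.7% and 16.7%.

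The pools that were high were not the same for each gene, but some recurred. Wild-type pool 2 was the highest for 33 of the 82 genes (40.2%), beside 26.8% of the other listed genes. Wild-type pool 3 was the lowest for 33 (40.2%), beside 28.9%. Among the 53 genes with other names that met the same conditions, these counts were 18 and 17. Wild-type pools 1 and 2 were the highest pair for 27 of the 82 genes (32.9%) and pools 3 and 4 for 17 (20.7%). These pairs were the highest for 24.8% and 22.8% of the other listed genes, and for 26.4% and 30.2% of the 53. Of the 19 genes with a ratio of 3 or more between the highest and the lowest wild-type pool, 9 had pools 1 and 2 and 4 had pools 3 and 4 as the highest pair. BX248082.1 had 10.6, 13.8, 6.45 and 17.6 in mutants, against 77.1, 77.2, 27.4 and 9.43 in wild type. The gene si:dkey-106c17.2 had 0, 4.12, 1.34 and 1.09 in mutants, against 13.2, 23.4, 2.00 and 5.36 in wild type. In both, wild-type pools 1 and 2 were high and a wild-type pool fell within the range of the mutant pools. The opposite pattern was seen in si:dkey-222p3.1, with 3.91, 4.16, 5.12 and 4.24 in mutants, against 9.31, 9.97, 49.2 and 39.6 in wild type, and in si:rp71-1i20.2, with 1.95, 1.04, 1.28 and 1.06 in mutants, against 11.2, 9.97, 39.0 and 23.0 in wild type. In these genes wild-type pools 1 and 2 resembled each other and stood under pools 3 and 4, and the mutant pools were lower still.

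The steadiest genes over the wild-type pools were si:dkey-188h10.3, si:dkey-222h21.5 and si:dkey-271j15.3, with coefficients of variation of 7.70%, 8.30% and 9.38%. The gene si:dkey-222h21.5 (2.06, 3.31, 1.48 and 0 in mutants, against 11.9, 10.7, 11.8 and 13.1 in wild type) is among the least counted of the 82. In each of these genes the spread was smaller than counting alone usually gives. Nothing was left of it once the part expected from counting was removed. These spreads therefore do not show that a level was held more tightly.

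**Figure D4:**
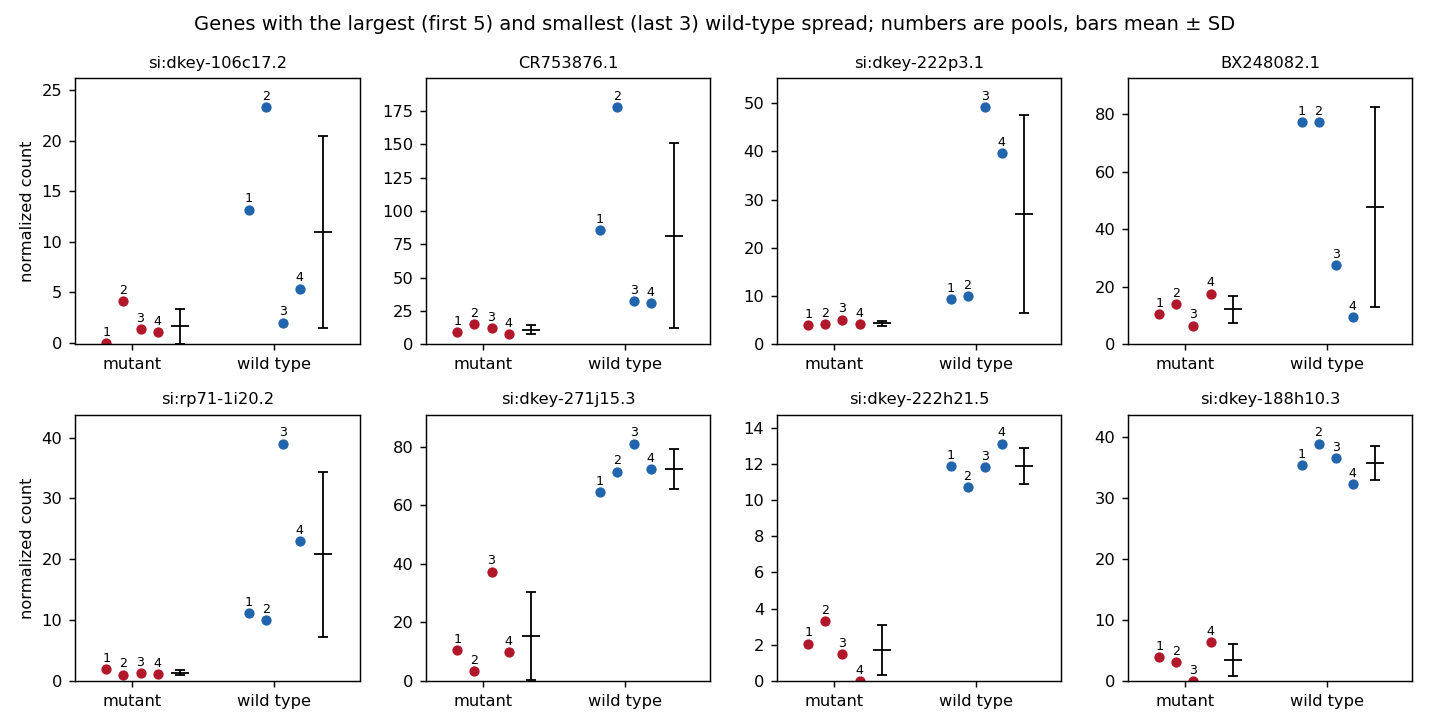
Normalized counts (vertical) in the 4 mutant pools (red, left) and the 4 wild-type pools (blue, right) of the 5 genes with the largest and the 3 with the smallest coefficient of variation over the wild-type pools; numbers name the pool and bars give the mean ± SD. Wild-type pools 1 and 2 are high in si:dkey-106c17.2, CR753876.1 and BX248082.1, and pools 3 and 4 are high in si:dkey-222p3.1 and si:rp71-1i20.2.

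Because the names carry the clone of origin, they show which genes come from the same stretch of the genome. A clone could be read from the listed or the Ensembl symbol of 76 of the 82 genes. Of these, 24 (31.6%) shared it with another listed gene, on 20 clones. Where the listed and Ensembl symbols named different clones, mates on either were counted. Among the other clone-named genes 89 of 407 (21.9%) did. A clone mate that was higher in the mutants was found for 13 of the 24 genes and a lower clone mate for 17, and 6 genes had both. The share with a higher mate was 54.2%, beside 64.0% (57 of 89) of the other clone-named genes that shared a clone and 35.7% (10 of 28) of those that were lower in the mutants. Listing by the authors required a change, so mates that did not change are not in these counts.

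In 7 of these genes the clone mate was itself one of the 82. BX511034.1 had 17.6, 27.1, 23.0 and 48.7 in mutants, against 130, 212, 108 and 151 in wild type. BX511034.5 had 0, 2.08, 6.39 and 20.1 in mutants, against 48.4, 83.8, 45.8 and 53.5 in wild type, and BX511034.7 had 3.91, 14.6, 3.84 and 8.53 in mutants, against 51.2, 70.5, 51.4 and 51.5 in wild type. Wild-type pool 2 was the highest for all 3 genes of this clone, and mutant pool 4 was the highest for BX511034.1 and BX511034.5. The log2 fold changes were -2.36 ± 0.31, -3.01 ± 0.62 and -2.83 ± 0.35. For BX511034.5 the value was -4.43 without mutant pool 4 and -2.56 without mutant pool 1. CU927934.1 had 2.73, 8.14, 2.03 and 1.72 in mutants, against 86.8, 27.9, 70.0 and 53.6 in wild type, and CU927934.3 had 4.15, 6.40, 1.89 and 2.45 in mutants, against 74.8, 35.2, 62.6 and 46.0 in wild type. The 4 wild-type pools had the same order in both genes of this clone, with pool 1 highest and pool 2 lowest, and mutant pool 2 was the highest mutant pool in both. Without it the log2 fold change of CU927934.1 was -4.49 in place of -3.85 ± 0.48, and without wild-type pool 1 it was -3.61. Whether genes of 1 clone share reads was not tested.

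The clone of si:rp71-36a1.3 and si:rp71-36a1.5 held listed genes in both directions. In the pools si:rp71-36a1.3 had 3.91, 2.08, 10.2 and 3.18 in mutants, against 14.6, 27.1, 12.7 and 8.67 in wild type. Its clone mate si:rp71-36a1.5 had 1.95, 5.20, 6.39 and 9.54 in mutants, against 92.2, 80.8, 59.5 and 75.1 in wild type (-3.72 ± 0.33). On the same clone si:rp71-36a1.2 had 39.3 ± 6.79 in mutants and 75.3 ± 11.5 in wild type, and si:rp71-36a1.1 had 121 ± 5.22 in mutants and 75.4 ± 6.97 in wild type (SD, n = 4 each). In the RefSeq order the 2 genes of the set lie 8 genes apart. The cytochrome c oxidase assembly gene cox14, 3 genes from si:rp71-36a1.5, had 260 normalized counts in mutants and 145 in wild type, and bcdin3d, 4 genes away and an RNA methyltransferase in human, had 1.56 in mutants and 22 in wild type.

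Several genes that were nearly absent from the mutants had a clone mate that was higher there. Next to si:dkey-102c8.2 in the RefSeq order lies si:dkey-102c8.3, with 928, 839, 886 and 863 in mutants, against 363, 438, 270 and 285 in wild type. The clone of si:dkey-19a16.13 also holds si:dkey-19a16.7, with 273, 435, 427 and 405 in mutants, against 47.5, 69.8, 143 and 134 in wild type, and si:dkey-19a16.1, with means of 1.37 in mutants and 6.37 in wild type. The clone of si:ch73-299h12.8 also holds si:ch73-299h12.3, with 53.7, 195, 215 and 179 in mutants, against 47.7, 51.4, 28.3 and 42.3 in wild type, and si:ch73-299h12.2, with means of 22.9 in mutants and 7.34 in wild type. In si:dkey-102c8.3, si:dkey-19a16.7 and si:ch73-299h12.3 every mutant pool was above every wild-type pool, although mutant pool 1 of si:ch73-299h12.3 was close to the wild-type pools. Such separation was seen in 12 of the 13 higher clone mates, so it marks out none of them. Its share over all listed genes was not counted. The largest opposite changes were those of si:dkeyp-4f2.1 and si:dkey-222h21.5. The gene si:dkeyp-4f2.1 had 6.38, 31.1, 34.7 and 13.9 in mutants, against 72.2, 61.4, 87.2 and 77.7 in wild type, whereas 1 mate, si:dkey-27n6.9, had 80.7, 111, 65.9 and 70.6 in mutants, against 7.29, 0, 10.3 and 4.94 in wild type. Its other mate, si:dkey-27n6.4, was lower, with means of 10.5 in mutants and 22.9 in wild type. Both mates share the clone of si:dkey-27n6.10, the Ensembl symbol of si:dkeyp-4f2.1, and not the clone in its listed name. The mate of si:dkey-222h21.5, si:dkey-222h21.1, had 7.01, 14.8, 9.86 and 17.7 in mutants, against 0.978, 0.997, 1.15 and 0 in wild type.

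For the gene with the highest count, si:dkey-262j3.7, the clone mate was pcdh2ab2, which encodes a protocadherin, a cell adhesion protein of neurons. It had 64.1, 178, 157 and 164 in mutants, against 80.8, 84.2, 58.3 and 83.8 in wild type, and mutant pool 1 was lower than the other mutant pools in both genes. In pcdh2ab2 mutant pool 1 lay within the range of the wild-type pools. BX530407.1 had 15, 0, 5.82 and 0.657 in mutants, against 48.8, 28.6, 23.4 and 28.7 in wild type. Its log2 fold change of -2.50 ± 0.62 was -3.77 without mutant pool 1 and -2.08 without mutant pool 2. Its mate BX530407.4 had 3.55, 5.20, 8.95 and 3.86 in mutants, against 2.79, 0, 0.848 and 0.922 in wild type, counts too low for the filter. A mate of each of si:dkey-29p23.2, si:ch211-76m11.3, si:dkey-7i4.1 and si:dkey-95p16.2 also had a higher mean in the mutants, between 27.8 and 33.3, against means between 6.15 and 17.5 in wild type. A second mate was lower for 2 of these. On the clone of si:dkey-190j3.8, the Ensembl symbol of si:ch211-76m11.3, si:dkey-190j3.6 had 5.98 in mutants and 16.9 in wild type. On the clone of si:dkey-7i4.1, si:dkey-7i4.24 had 0.764 in mutants and 6.05 in wild type.

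**Figure D5:**
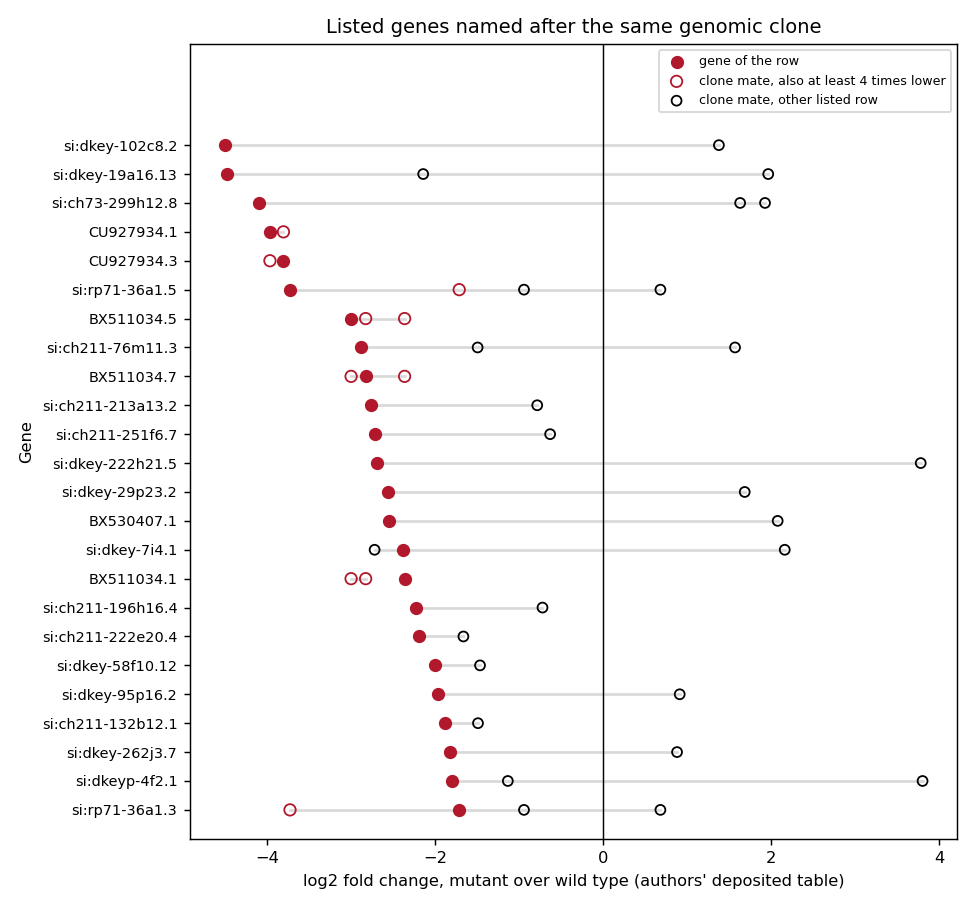
Log2 fold change, mutant over wild type, from the authors' deposited table (horizontal) for the 24 genes that share a clone with another listed gene (vertical, filled circles) and for those clone mates (open circles, red where the mate is also one of the 82). Open circles right of 0 are mates that were higher in the mutants, up to 3.80 for the mate of si:dkeyp-4f2.1.

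Order along the chromosomes could be read only for the 36 genes matched by name in GRCz12tu. This is under 80% of the set, so no check of position over the set was possible. Within 10 annotated genes on either side, 17 of the 36 (47.2%) had another listed gene, beside 466 of 845 (55.1%) of the other listed genes. The 36 lay on 17 chromosomes, and 2 of them on that of iqgap1. The genes zgc:136254 and si:ch211-251f6.7 are direct neighbours. In the pools si:ch211-251f6.7 had 12.2, 8.89, 2.08 and 10.6 in mutants, against 48.7, 63.6, 47.7 and 71.4 in wild type (-2.70 ± 0.33). Beside them lie si:ch211-251f6.6, with 379 ± 40.9 in mutants and 588 ± 84.4 in wild type, and zgc:173443, which fell just outside the threshold. All 4 genes of this stretch had every mutant pool below every wild-type pool. So did 92.7% of the listed genes that were lower in the mutants, and this does not mark out the stretch.

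Other neighbours pointed in different directions. The long noncoding RNA si:dkey-188h10.3 lies 1 gene from ern1, which encodes the endoplasmic reticulum stress sensor IRE1 and had 459 normalized counts in mutants and 1278 in wild type. It lies 7, 8 and 9 genes from the embryonic globins hbae3, hbae1.3 and hbbe1.3, with means of 35677, 12398 and 27974 in mutants, against 11983, 4646 and 13017 in wild type. The gene si:ch211-186e20.7, with 6.05, 5.77, 1.28 and 2.17 in mutants, against 22, 16, 25.2 and 16.5 in wild type, lies next to zgc:174260, which had 20.6 in mutants and 3.71 in wild type. The gene zgc:162509 had 7.81, 6.24, 5.12 and 5.30 in mutants, against 57.7, 49.9, 31.4 and 38.7 in wild type (-2.82 ± 0.29), and si:ch211-149k23.9, 4 genes away, had 55.5 in mutants and 16.2 in wild type. Genes of the set thus had listed neighbours of either direction.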

How the data were processed

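Total RNA of 4 mutant and 4 wild-type pools was compared. Per the submitters' processing notes, the tools were Trimmomatic, STAR 2.7 and RSEM with danRer11; annotation, strand setting and comparison tool were not given in the sources used here, so overlapping, antisense and near-identical genes cannot be separated. Per the file headers, the deposited table gives a log2 fold change, a linear fold change, p-values and adjusted p-values and 1 column per library; the largest deposited adjusted p-value was 0.04997, so every listed gene had been selected.

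The deposited library values were RSEM expected counts, each multiplied by 1 of 8 factors repeating in cyclic order; dividing these out returned all 10152 nonzero values to multiples of 0.01. Genes were chosen on the values as deposited. Size factors were medians of ratios within each group over genes with a mean of at least 50, with 1 offset between groups (-0.236, log2) matching the deposited fold changes; 95.7% of 648 genes then lay within 0.01 of them. Rounded counts were fitted with edgeR 4.0.16 in R 4.3.3 (filterByExpr, minimum count 10 and total 15; quasi-likelihood test), as no pairing is stated in the labels, with p-values adjusted over 26889 genes, those outside the table at a p of 1. The recovery of counts was checked by passing recovered values through the same factors again, which returned all 1293 genes. The fit was run on counts simulated at 1 common dispersion with known size factors. That check does not cover the offset between groups or genes with a wider spread. Each SE is the absolute log2 fold change divided by the square root of the F statistic of the quasi-likelihood test.

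Clones were read from the listed and the Ensembl symbols. Neighbours came from RefSeq's GRCz12tu, matched by symbol or synonym and used for names and order only. Genes named with values in every pool were those with the 10 highest wild-type means, the 10 largest ratios, 3 on each side of the threshold, the 5 largest and 3 smallest wild-type spreads, and those with a neighbour or clone mate in the set or higher in mutants. Clone mates stood in for the protein relatives that had been planned. Of these genes, si:dkey-29p23.2, si:dkey-7i4.1 and si:dkey-95p16.2 are given without their own pool values. Genes with an Ensembl symbol, the RNA biotypes and the overlapping pools were added after their values were seen, with CR925761.1 by name only. Genes, lists and alternatives were all chosen with earlier results of these data known. Alternatives were other scalings, no filter, DESeq2 1.42.0, a replicate block, each pool left out and other thresholds. For named genes, a prior count of 2 in place of 0.125 was also used. Sequences and protein comparisons were not used here.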

Additional observations from a re-analysis of the deposited data

Results flagged for a closer look

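For the 82 genes, their listed clone mates, the 3 genes just outside the threshold and iqgap1, each group of 4 pools was searched for a pool far from the other 3. Among the 82, wild-type pool 2 stood apart in BX511034.7 at 70.5 normalized counts (the others 51.2 to 51.5), in si:ch211-132b12.1 at 34.4 (25.5 to 26.3) and in si:dkey-29j8.3 at 19.8 (42.6 to 43.9). Mutant pool 2 stood apart in CU927934.1 at 8.14 (1.72 to 2.73), in CR388231.2 at 8.05 (1.31 to 2.02) and in BX649307.1 at 1.58 (7.25 to 7.72). Among the clone mates, mutant pool 1 stood apart in si:dkey-27n6.4 at 4.24 (12.1 to 13.1), wild-type pool 3 in pcdh2ab2 at 58.3 (80.8 to 84.2) and wild-type pool 4 in si:dkey-222h21.1 at 0 (0.978 to 1.15). These are 9 of 220 groups examined, while about 11 would be set apart by chance, and the genes share their pools.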

How the results depend on the processing

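The fitted log2 fold change of the genes that passed the filter had a median of -2.38. It was -3.02 with RLE size factors, -2.82 with TMM and -2.71 unscaled, which shift all listed genes by -0.51, -0.38 and -0.23; it was -2.57 with no filter (82 genes fitted), -2.61 with DESeq2, and -2.70 to -2.37 with 1 pool left out. The count of genes called lower, 59 of 67 fitted (29.3% of all listed genes fitted), was 68 of 70 with RLE (41.6%), 65 of 68 with TMM (40.3%), 66 of 69 unscaled (37.1%), 72 of 82 with no filter (28.1%), 77 of 82 with DESeq2 (29.9%), and 60 of 68 on the values as deposited (29.7%). With 1 pool left out the count was 52 to 59, of 68 to 75 fitted, beside 20.2% to 27.5% of all listed genes fitted. With the replicate number as a block it was 53 of 67 (20.4%) with a median of -2.43. Deviations of equally numbered pools correlated at -0.03, 0.09, -0.24 and -0.12. These correlations over listed genes with a mean of at least 50 cannot settle whether such pools shared a clutch or batch. A ratio of at least 8 left 31 genes and a wild-type mean of at least 50 left 29. A ratio of at least 3 gave 116, no minimum 103, scaled values 69, medians 84, and leaving out 1 pool 77 to 84. Taking in names of 4 capital letters and 8 digits gave 91. Alternatives added after seeing the data left out each mutant pool, which gave 78 or 79 genes with no overlap and a summed mutant level of 17.7% to 21.2% of wild type. The median wild-type coefficient of variation, 27.7%, was 28.4% unscaled and 23.8% to 28.8% with 1 wild-type pool left out. Of the named genes' alternatives, 290 stayed within 1 SE of the reported value, 59 moved further and none changed direction. The direction says nothing further, as it chose the genes. With RLE 26 moved and 8 stayed, so most named values depended on the scaling. With 1 pool left out 18 moved and 262 stayed. With a prior count of 2, which shrinks fold changes at low counts, 15 moved and 20 stayed. With that prior count, zgc:171242 went from -5.80 to -3.94, zgc:172014 from -5.08 to -4.17 and si:dkey-102c8.2 from -4.62 to -3.36. The log2 fold change of iqgap1 stayed negative, -1.54 with RLE, -1.41 with TMM, -1.25 unscaled and -1.12 to -0.97 with 1 pool left out. The comparison of protein relatives was not run. Depth limits genes under about 20 counts, most of all those at 0 in mutant pools.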
